A study of Homo sapiens with 16 samples.

Results

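Complex I, or NADH:ubiquinone oxidoreductase, is the entry point of electrons from NADH into the mitochondrial respiratory chain. It is an L-shaped complex of a matrix arm, in which the N module oxidises NADH and the Q module reduces ubiquinone, and of a proton-pumping membrane arm built around mitochondrially encoded subunits. Its remaining subunits and the factors that assemble it are encoded in the nucleus, so its formation needs both genomes and the mitochondrial ribosome. The genes described here were all those whose symbol begins with NDUF followed by A, B, C, S, V, AF or AB and a number, with at least 50 counts summed over the 16 libraries. The rule took 45 of the 39249 genes in the tables. They comprise 7 core subunits of the matrix arm (among them NDUFV1, NDUFV2 and NDUFS1 in the N module and NDUFS3, NDUFS7 and NDUFS8 in the Q module), 13 accessory subunits of the NDUFA series (NDUFAB1 included), 11 of the NDUFB series of the membrane arm, 6 of the NDUFC, NDUFS and NDUFV series, 7 assembly factors (NDUFAF1 to NDUFAF7), and NDUFA4, which was named as a complex I subunit and is now assigned to complex IV. NDUFAF8 stood in the tables under its older symbol C17orf89 and so fell outside the rule.

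The RNA came from A673, an Ewing sarcoma cell line, and from 3 derivatives of it that the labels call monoclonal knockouts, one each for MRPL45 (part of the large subunit of the mitochondrial ribosome), CYC1 and UQCRFS1 (both subunits of respiratory complex III). Each knockout line is thus 1 clone, and an effect of the knocked-out gene cannot be told apart from other differences of that clone. Each of the 4 lines was grown for 48 h with SP-2509 at 500 nM, an inhibitor of the histone demethylase LSD1, or with 0.1% DMSO as the solvent control, with 2 libraries in each of the 8 groups. No label says that the replicates were separate cultures, so p-values measure only how much these libraries vary, and that variation may be technical. Total counts ranged from 24873597 to 56171036 per library. All 10 Ewing sarcoma markers looked for were present in every library, and 7 of the 8 measured markers of blood, epithelial, endothelial and muscle cells stayed at or below 0.45 counts per 1000000 counts of the library (CPM); the exception was the epithelial keratin KRT18, at 48.6 to 171 CPM. CYC1 stood at 78.9 and 82.2 CPM in CYC1 knockout libraries with SP-2509, against 261 and 258 CPM in A673 libraries with SP-2509, and at 71.1 and 74.4 CPM with DMSO, against 290.4 and 280.4 CPM in A673 libraries with DMSO. UQCRFS1 stood at 88.2 and 77.8 CPM in UQCRFS1 knockout libraries with SP-2509, against 116 and 119 CPM in A673 libraries with SP-2509, and at 58.6 and 60.9 CPM with DMSO, against 102 and 98.6 CPM in A673 libraries with DMSO. The UQCRFS1 level of the SP-2509 libraries of that line thus came close to that of the MRPL45 knockout libraries with DMSO (88.6 and 91.9 CPM), so for them the label check is weaker. No gene used here carries the symbol MRPL45, so that label was not checked.

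All 45 genes passed the expression filter. Levels are CPM over library sizes scaled by TMM, and comparisons between genes use CPM per kilobase of exon. The exon length is the union of all annotated exons of a gene, which can exceed the length of the transcripts these cells express. The order of genes per kilobase therefore depends on the annotation as well as on the level. NDUFS1, with a union of 11918 bases, had the highest CPM of the 45 (256) before this division. In A673 cells with DMSO, the highest level per kilobase was that of NDUFS5, an accessory subunit at the intermembrane-space side, with 248 ± 10.5 CPM per kilobase (SD, n = 2). NDUFA4, NDUFA1, NDUFB10, NDUFAB1 and NDUFA12 followed with 112 ± 21.9, 107 ± 7.66, 107 ± 1.90, 104 ± 10.8 and 104 ± 11.01 CPM per kilobase, and these 5 values lie within their spread of each other. Among the core subunits NDUFS8 had 72.4 ± 2.93, NDUFS3 56.7 ± 2.51, NDUFV1 37.96 ± 3.36, NDUFS1 21.5 ± 0.07 and NDUFS7 5.80 ± 0.03 CPM per kilobase. Among the assembly factors NDUFAF2 had 46.5 ± 4.92 CPM per kilobase, and the other 6 lay between 3.12 ± 0.25 for NDUFAF6 and 18.0 ± 1.29 for NDUFAF4, a range that holds the value of NDUFS7. NDUFV2, NDUFA7 and NDUFA13 were lowest, with 1.68, 1.14 and 0.77 CPM per kilobase. These 3 genes had only 2053, 674 and 1224 counts over all libraries. The pseudogene NDUFV2P1 alone held 1962 counts, so the values of NDUFV2 depend on how reads of near-identical sequence were assigned, and all 3 genes are reported as uncertain. In all, 35 pseudogenes named after 15 of the members stand in the tables, and the strand setting of the counting is not given in the sources used here, so members with an antisense gene (NDUFA6, NDUFB2 and NDUFV2) may hold its reads.

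SP-2509 raised some complex I genes in A673 and lowered others. By edgeR's quasi-likelihood test with Benjamini-Hochberg adjustment over 21633 genes, 9 of the 45 (20%) were higher and 14 (31.1%) lower, against 31.6% and 26.4% of all genes tested (58% in either direction), and their median log2 fold change was 0.01 against -0.03 over all genes. The members were therefore called higher less often, and lower slightly more often, than genes in general; no test was made of these shares. In bulk RNA, less of a transcript per cell and fewer cells that express it cannot be told apart. Of the 11 NDUFB subunits 5 fell (NDUFB10, NDUFB7, NDUFB6, NDUFB9 and NDUFB4) and 1 rose (NDUFB11). Of the 6 NDUFC, NDUFS and NDUFV accessory subunits 3 rose (NDUFC1, NDUFS4, NDUFS6) and 2 fell (NDUFV3, NDUFS5). Of the 13 NDUFA subunits, NDUFAB1 included, 3 rose and 4 fell, and of the 7 assembly factors NDUFAF4 and NDUFAF7 rose while NDUFAF3 fell.

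NDUFB10, a membrane-arm subunit with disulphide bonds that faces the intermembrane space, had 55.4 and 53.6 CPM in A673 libraries with SP-2509, against 93.5 and 91.2 CPM with DMSO. The groups lie far apart and do not overlap, with a log2 fold change of -0.76 ± 0.07 (SE; adjusted p = 4.96e-10). NDUFAB1, the mitochondrial acyl carrier protein, which is a complex I subunit and also serves lipoate and iron-sulfur cluster synthesis, had 76.5 and 73.3 CPM with SP-2509 and 126 and 109 CPM with DMSO (log2 -0.64 ± 0.07, adjusted p = 5.92e-09). Both SP-2509 libraries were below both DMSO libraries, although the DMSO libraries differed more from each other. NDUFAF3, an assembly factor that binds the Q module together with NDUFAF4, stood at 6.51 and 7.05 CPM with SP-2509 and at 11.6 and 12.7 CPM with DMSO, the steepest fall of the 45 on the log2 scale (-0.84 ± 0.13, adjusted p = 3.6e-06). Its partner NDUFAF4 moved the other way, with 51.1 and 51.4 CPM with SP-2509 and 45.4 and 41.1 CPM with DMSO (0.24 ± 0.07, adjusted p = 0.00261). NDUFB7 and NDUFB6, further subunits of the membrane arm, changed nearly as much as NDUFB10. NDUFB7 had 22.7 and 26.02 CPM with SP-2509 and 39.4 and 37.98 CPM with DMSO (-0.67 ± 0.11, adjusted p = 0.000103), and NDUFB6 had 38.7 and 36.6 CPM with SP-2509 and 63.3 and 53.97 CPM with DMSO (-0.64 ± 0.07, adjusted p = 4.88e-08). In each of these genes the treated and control libraries did not overlap.

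Among the genes that rose in A673, NDUFC1, a small membrane-arm subunit, had 75.7 and 76.3 CPM with SP-2509 and 51.8 and 47.9 CPM with DMSO (log2 0.61 ± 0.06, adjusted p = 6.29e-09). NDUFS4, a subunit that holds the N module in place and is known from Leigh syndrome, had 68.3 and 66.9 CPM with SP-2509 and 54.4 and 47.4 CPM with DMSO (0.41 ± 0.07, adjusted p = 2.45e-05). The treated libraries of both genes agree closely with each other and lie above both controls. NDUFA6, a subunit that binds the acyl carrier protein, NDUFB11 and NDUFA10 rose by less, with log2 fold changes of 0.38 ± 0.08, 0.36 ± 0.07 and 0.29 ± 0.06. NDUFA7 was called higher too, from fewer than 2 CPM in every library.

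Most of the core subunits described here moved little in A673. NDUFS1, the largest core subunit, had 253 and 257 CPM with SP-2509 and 257 and 256 CPM with DMSO, and its groups overlap (-0.01 ± 0.06, adjusted p = 0.923). NDUFV1, which carries the FMN that accepts electrons from NADH, had 99.2 and 98.6 CPM with SP-2509 and 89.9 and 102 CPM with DMSO (0.04 ± 0.07, adjusted p = 0.625). NDUFV2, which is uncertain as said, fell by 0.45 on the log2 scale (adjusted p = 0.0242); NDUFS3, NDUFS7 and NDUFS8 gave 0.08 ± 0.07, 0.07 ± 0.12 and 0.09 ± 0.06 and were not called. Under upper-quartile scaling the median of all genes in this comparison became -0.21, the split over the 45 genes became 4 higher and 20 lower, and NDUFS1 was called lower at -0.19. Of the 23 calls, 15 held when any 1 of the 4 libraries was left out; those lost were NDUFA7, NDUFAF4, NDUFAF7, NDUFB9, NDUFS5, NDUFS6, NDUFV2 and NDUFV3. A replicate block added NDUFA9 (0.66, adjusted p = 3.09e-05), NDUFC2, NDUFA2 and NDUFB5 to the calls.

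The promoters of genes that fell and of genes that rose were compared as sequence. RefSeq (GRCh38.p14) gave the 300 bases around the start of 38 of the 45 genes. The stretches upstream of the first exon, 5′ to 3′ on the strand of the gene, for NDUFB10 (lower in all 4 lines), NDUFB4 (lower in A673 and the UQCRFS1 knockout line), and NDUFC1 and NDUFS4 (each higher in 3 lines), are given with matches to the NRF1 motif in capitals. NRF1, or nuclear respiratory factor 1, is a transcription factor known to bind promoters of nuclear respiratory chain genes.
NDUFB10 (chr16:1959288-1959507, + strand): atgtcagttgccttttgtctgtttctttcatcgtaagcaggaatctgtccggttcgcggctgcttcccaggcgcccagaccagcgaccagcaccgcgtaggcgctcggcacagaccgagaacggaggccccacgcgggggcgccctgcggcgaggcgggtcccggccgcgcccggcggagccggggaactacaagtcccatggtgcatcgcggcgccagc
NDUFB4 (chr3:120596086-120596308, + strand): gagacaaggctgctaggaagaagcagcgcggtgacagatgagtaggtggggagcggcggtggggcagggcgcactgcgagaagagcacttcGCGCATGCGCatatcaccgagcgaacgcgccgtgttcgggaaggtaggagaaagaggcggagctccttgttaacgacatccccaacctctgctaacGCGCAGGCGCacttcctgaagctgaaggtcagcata
NDUFC1 (chr4:139302552-139302801, - strand): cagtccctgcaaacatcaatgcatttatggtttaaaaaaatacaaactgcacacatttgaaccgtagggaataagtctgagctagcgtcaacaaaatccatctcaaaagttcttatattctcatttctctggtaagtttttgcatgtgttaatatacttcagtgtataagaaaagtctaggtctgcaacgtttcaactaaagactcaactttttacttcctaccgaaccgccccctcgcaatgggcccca
NDUFS4 (chr5:53560389-53560634, + strand): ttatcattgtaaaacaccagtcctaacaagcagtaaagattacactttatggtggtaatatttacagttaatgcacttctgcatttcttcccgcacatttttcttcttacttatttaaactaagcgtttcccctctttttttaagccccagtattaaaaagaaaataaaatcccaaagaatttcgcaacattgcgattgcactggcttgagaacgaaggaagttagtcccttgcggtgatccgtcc
The stretch of NDUFB4 holds the NRF1 letters, and those of the other 3 genes do not. Over the 300 bases and both strands, 7 of the 38 promoters (18.4%) hold the NRF1 motif, against 8.57% of 15842 promoters of protein-coding genes. These 7 were NDUFA3, NDUFA8, NDUFA9, NDUFA11, NDUFA12, NDUFAF5 and NDUFB4. In A673, SP-2509 lowered NDUFA3, NDUFA8 and NDUFB4 among them, and the other 4 were not called. In the UQCRFS1 knockout line the same genes fell, while NDUFA9, NDUFA12 and NDUFAF5 were called higher. Of all 38 genes, 11 were lower and 9 higher in A673, and 10 lower and 14 higher in the UQCRFS1 knockout line. A link between motif and response was not tested. The YY1 letters AAGATGGC stand in 6 (15.8%; 3.91% of protein-coding promoters), all just after the start, and the E-box CACGTG in 4 (10.5%; 8.88%). The ETS letters CCGGAAGT stand in 2 (5.3%; 6.19%), and TCAAGGTCA, bound by estrogen-related receptors, in none (0.24%). G and C made up 38.8% of the 250 bases upstream of NDUFC1 and 36.8% of those of NDUFS4, the lowest of the 38, against a median of 60.8%. Over the 38 promoters GC content and the log2 fold change with SP-2509 had a Pearson correlation of -0.30 in A673 and -0.34 in the UQCRFS1 knockout line, given as a description. The Spearman correlations were -0.24 and -0.26. In A673 the median GC content was 58.8% for genes that rose, 62.8% for those that fell and 56.8% for those not called. The medians in the UQCRFS1 knockout line were 56.2%, 62.8% and 61.4%. In A673 the uncalled genes thus had the lowest median. A match of letters is not a binding site.

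**Figure D1:**
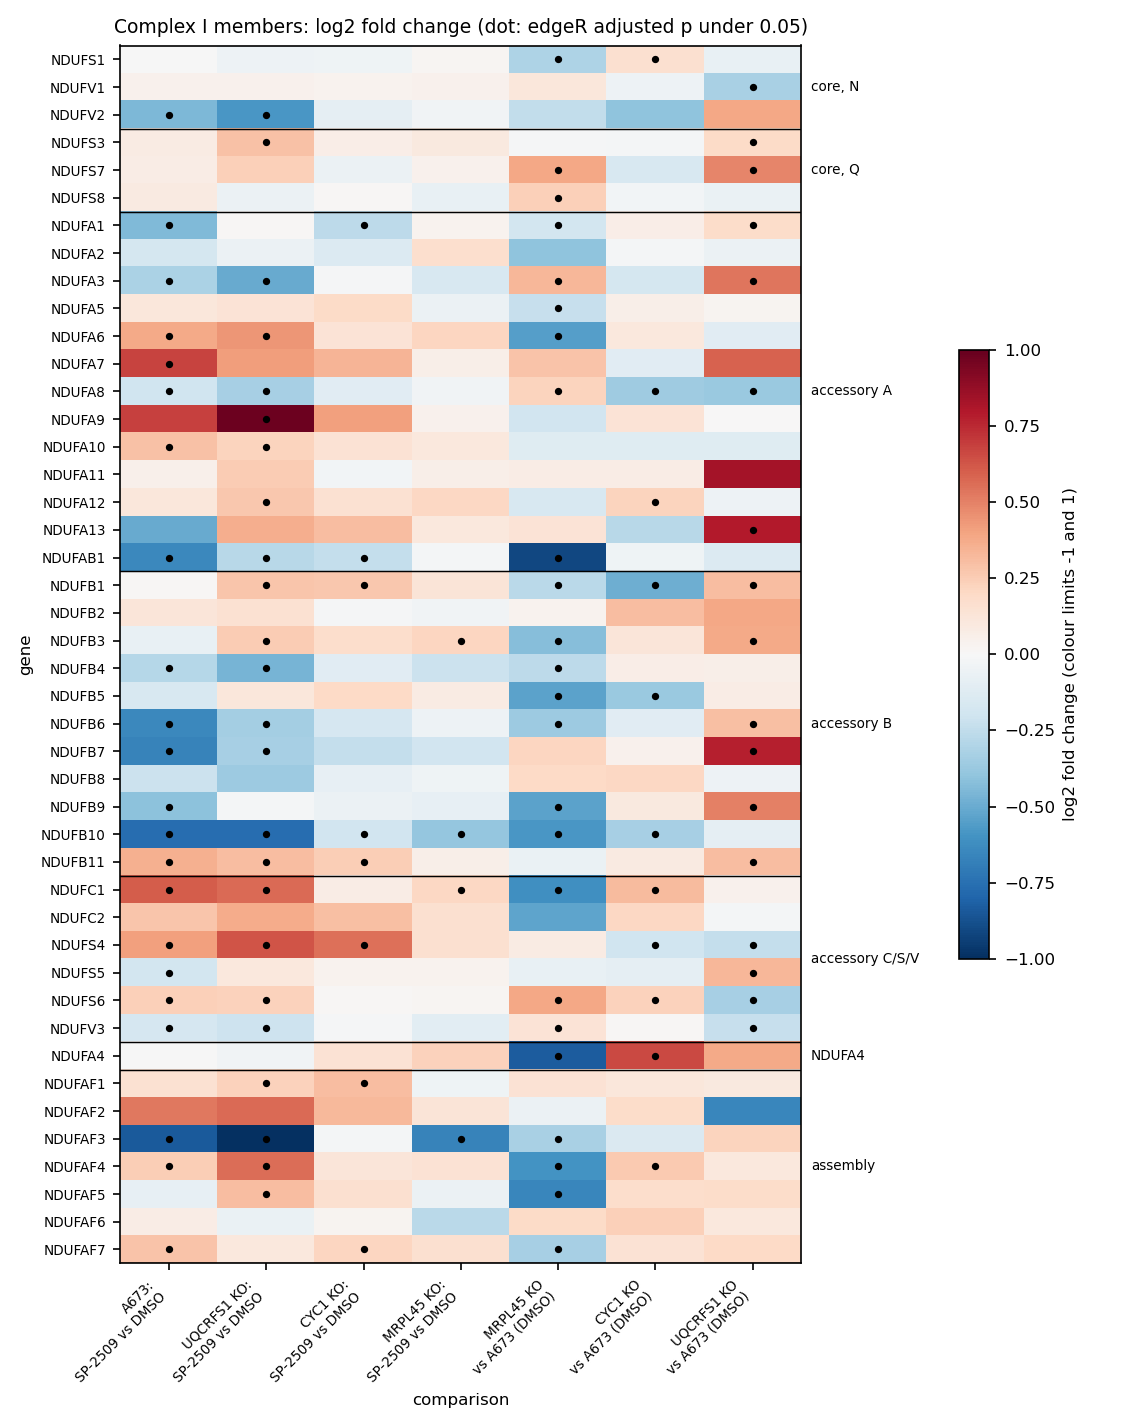
Log2 fold change of 44 of the 45 complex I genes (vertical axis, grouped by role) in 7 comparisons (horizontal axis: SP-2509 against DMSO in each line, then each knockout line against A673 with DMSO); colour runs between -1 and 1 and a dot marks an edgeR adjusted p under 0.05. NDUFB10 carries a dot in all 4 SP-2509 columns, and most calls in the column of the MRPL45 knockout line against A673 are lower.

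In the UQCRFS1 knockout line 14 of the 45 genes (31.1%) rose with SP-2509 and 11 (24.4%) fell, against 29.6% and 25.1% of all genes tested (54.7% in either direction), so the shares were near those of all genes. This line and A673 share no library in these comparisons. Of the 9 genes higher in A673, 7 (77.8%) were higher in the UQCRFS1 knockout line, which is 50% of its 14. Of the 14 lower in A673, 11 (78.6%) were lower in the UQCRFS1 knockout line, which is all of its 11. Over all genes tested, the shared calls made up 80.8% of those higher in A673 and 86.2% of those higher in the UQCRFS1 knockout line. For the lower calls these shares were 72.3% and 76.1%. As shares of the A673 calls, the members were thus near genes in general. As shares of the UQCRFS1 knockout calls, fewer of their rises (50%) and more of their falls (all 11) were shared. No test was made of these differences. None of the 45 was called in opposite directions, against 1.61% of all genes higher in A673 and 0.63% of those lower there. NDUFB10 had 53.3 and 49.1 CPM with SP-2509, against 82.8 and 90.8 CPM with DMSO (log2 -0.76 ± 0.07, adjusted p = 5.56e-10). NDUFAF3 had 6.94 and 6.87 CPM with SP-2509, against 13.1 and 15.1 CPM with DMSO (-1.03 ± 0.12, adjusted p = 1.45e-07), and NDUFAF4 had 71.3 and 65.7 CPM with SP-2509, against 46.1 and 47.1 CPM with DMSO (0.56 ± 0.06, adjusted p = 6.98e-08). The 2 Q-module assembly factors thus moved apart in this line as well, with no overlap of libraries in either.

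NDUFS4 had 69.01 and 64.2 CPM with SP-2509 in the UQCRFS1 knockout line, against 41.7 and 44.6 CPM with DMSO (0.63 ± 0.07, adjusted p = 4.61e-08). NDUFC1 had 79.5 and 72.6 CPM with SP-2509, against 50.2 and 52.7 CPM with DMSO (0.56 ± 0.06, adjusted p = 2.13e-08). NDUFA3 and NDUFB4, both membrane-arm accessory subunits, fell, by 0.50 and 0.46 on the log2 scale, and NDUFB6 by 0.34. NDUFS3, a core subunit of the Q module, rose in this line, with 194 and 185 CPM with SP-2509 and 145 and 165 CPM with DMSO (0.29 ± 0.07, adjusted p = 0.000708). NDUFA9, which sits where the matrix arm meets the membrane, gave the largest rise of the line, with 49.9 and 52.8 CPM with SP-2509 and 23.6 and 28.6 CPM with DMSO (0.98 ± 0.32, adjusted p = 0.0285). This call was lost when any of the 4 libraries was left out (log2 between 0.85 and 1.14), and without the low-count filter (adjusted p = 0.0641); NDUFA9 was higher in replicate 2 in all 8 groups. Of the 25 calls 18 held in every such fit; NDUFA12, NDUFAF1, NDUFB7, NDUFS6 and NDUFV2 were among the others lost. With upper-quartile factors 9 were higher and 13 lower, the median of all genes then standing at -0.14, and a replicate block added NDUFC2 and NDUFS7.

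In the CYC1 knockout line 5 genes (11.1%) rose and 3 (6.7%) fell with SP-2509, against 18.7% and 14.7% of all genes tested (33.4% in either direction), so fewer members than genes in general were called in either direction. NDUFS4 led the rises, with 67.05 and 63.02 CPM with SP-2509 and 45.9 and 43.03 CPM with DMSO (log2 0.55 ± 0.07, adjusted p = 1.46e-06); the other 4 were NDUFAF1 (0.31 ± 0.08), NDUFB1 (0.27 ± 0.07), NDUFB11 (0.25 ± 0.07) and NDUFAF7 (0.22 ± 0.08). The 3 that fell were NDUFA1 (-0.26 ± 0.07), NDUFAB1 (-0.24 ± 0.06) and NDUFB10. NDUFB10 had 64.5 and 63.9 CPM with SP-2509 and 73.2 and 73.2 CPM with DMSO (-0.19 ± 0.07, adjusted p = 0.0309). The replicates of NDUFB10 almost coincide and the groups do not overlap, but the call was lost when any 1 of the 4 libraries was left out (log2 between -0.22 and -0.19, adjusted p between 0.087 and 0.14). NDUFS4, NDUFA1 and NDUFAB1 were the calls that held in all 4 such fits. The number of higher calls was 1 without the second DMSO library, and 3 without the first DMSO library or without the second SP-2509 library. The replicate block gave 11 higher and 4 lower, adding NDUFA5, NDUFA9, NDUFA10, NDUFB3, NDUFB5, NDUFB6 and NDUFC2, and upper-quartile factors gave 4 and 5. Shares of all genes under these settings are not given, so these counts cannot be set against the shares above.

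In the MRPL45 knockout line SP-2509 changed 4 of the 45 genes. NDUFB3 and NDUFC1 rose and NDUFAF3 and NDUFB10 fell, which is 4.4% in each direction against 10.4% higher and 8.09% lower of all genes tested (18.5% in either direction). NDUFAF3 had 5.31 and 6.74 CPM with SP-2509, against 9.57 and 9.87 CPM with DMSO (log2 -0.67 ± 0.13, adjusted p = 0.00084). NDUFB10 had 49.3 and 45.1 CPM with SP-2509, against 57.8 and 65.7 CPM with DMSO (-0.39 ± 0.07, adjusted p = 0.000249). Both falls held when any library was left out. The rises, 0.22 ± 0.07 for NDUFB3 and 0.20 ± 0.07 for NDUFC1, were both lost without the first DMSO library or without the second SP-2509 library. Higher calls numbered 0 without the first DMSO library and 1 without the first SP-2509 library; at an unadjusted p under 0.05 edgeR gave 6 higher over all libraries, and DESeq2 called 2. NDUFAB1, which fell in the other 3 lines, had 60.2 and 62.9 CPM with SP-2509 and 59.5 and 65.2 CPM with DMSO in this line (-0.02 ± 0.07, adjusted p = 0.92), and its groups overlap. Upper-quartile factors gave 1 higher and 4 lower, and the replicate block gave 4 and 3, adding NDUFA6, NDUFA12 and NDUFB4.

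**Figure D2:**
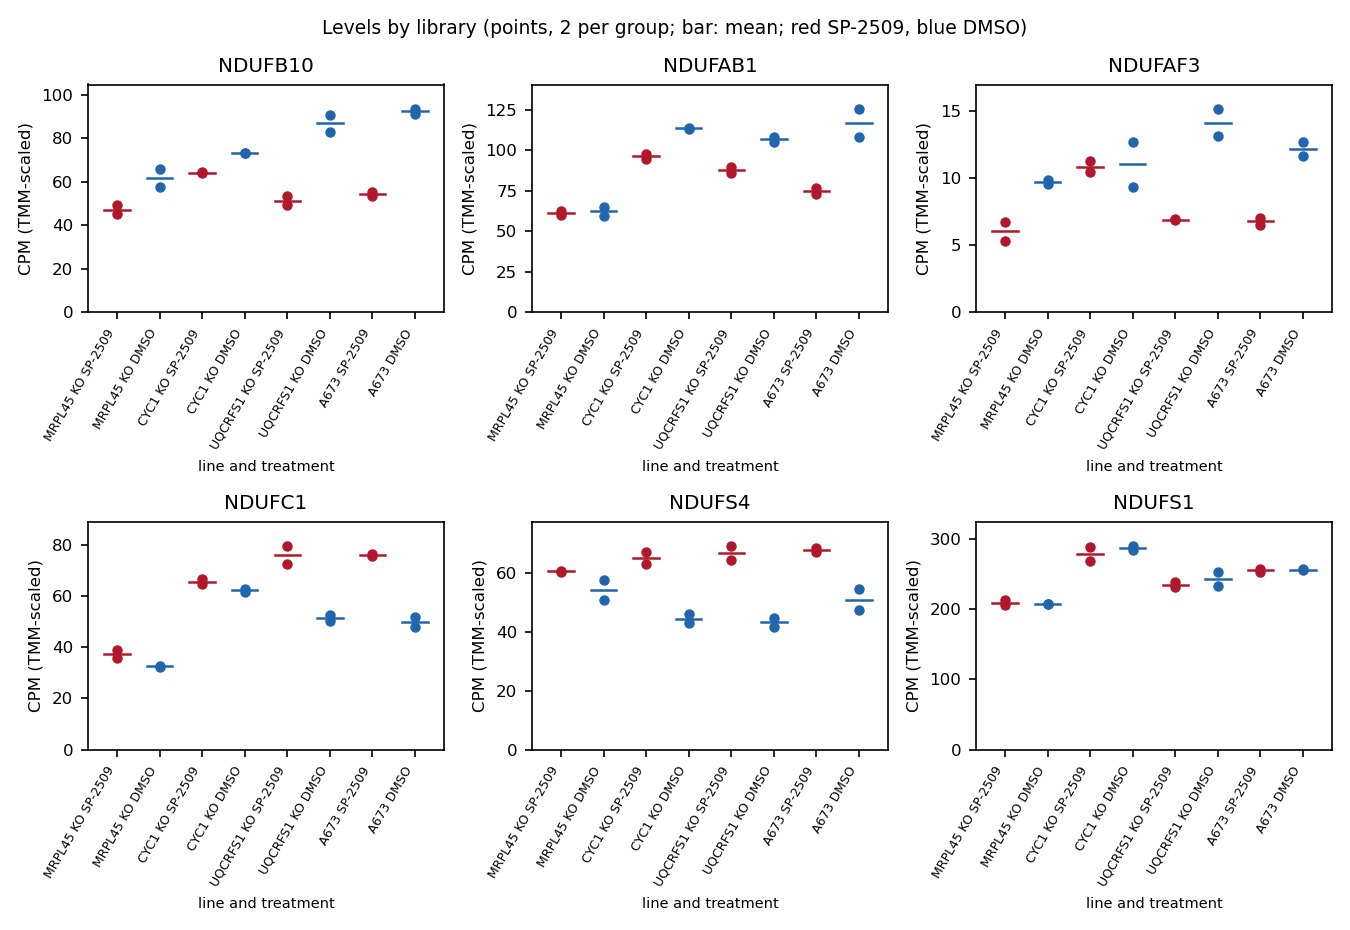
CPM (vertical axis, from 0) of 6 complex I genes in each of the 16 libraries, by line and treatment (horizontal axis; SP-2509 red and left of DMSO blue; bar, mean of 2). NDUFB10 is lower with SP-2509 in every line, NDUFAB1 in every line but the MRPL45 knockout line, and NDUFS1 overlaps between treatments in each line.

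Over the 4 responses, which use separate libraries, 15 of the 45 genes were called in none, 16 only higher, 14 only lower and 0 in both directions. These are 33.3%, 35.6% and 31.1% of the members for the first 3 classes, near the 29.4%, 34.8% and 32.7% of all genes tested, of which 3.13% were called in both directions. NDUFB10 was the one member called in all 4 (2.22%, against 12% of all genes tested), and it was lower in each. NDUFAB1 and NDUFAF3 were lower in 3 lines, and NDUFC1, NDUFS4 and NDUFB11 were higher in 3. All of the calls in the 4 responses had the same direction within the replicate 1 libraries and within the replicate 2 libraries. Where the groups do not overlap this follows from the same values, so it adds no separate support. The 15 genes called in none included the core subunits NDUFV1, NDUFS1, NDUFS7 and NDUFS8, NDUFA4, and NDUFA11, NDUFB8 and NDUFC2, whose replicates lie far apart. In the authors' deposited tables, 9 of the 45 genes were higher and 13 lower with SP-2509 in A673 at an adjusted p under 0.05, 16 and 11 in the UQCRFS1, 5 and 5 in the CYC1 and 5 and 3 in the MRPL45 knockout line. The values of NDUFV1 stayed between 0.03 and 0.04 on the log2 scale in the 4 lines and those of NDUFS1 between -0.05 and 0.02, though upper-quartile factors gave NDUFS1 as lower at -0.19 in the UQCRFS1 knockout line too.

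**Figure D3:**
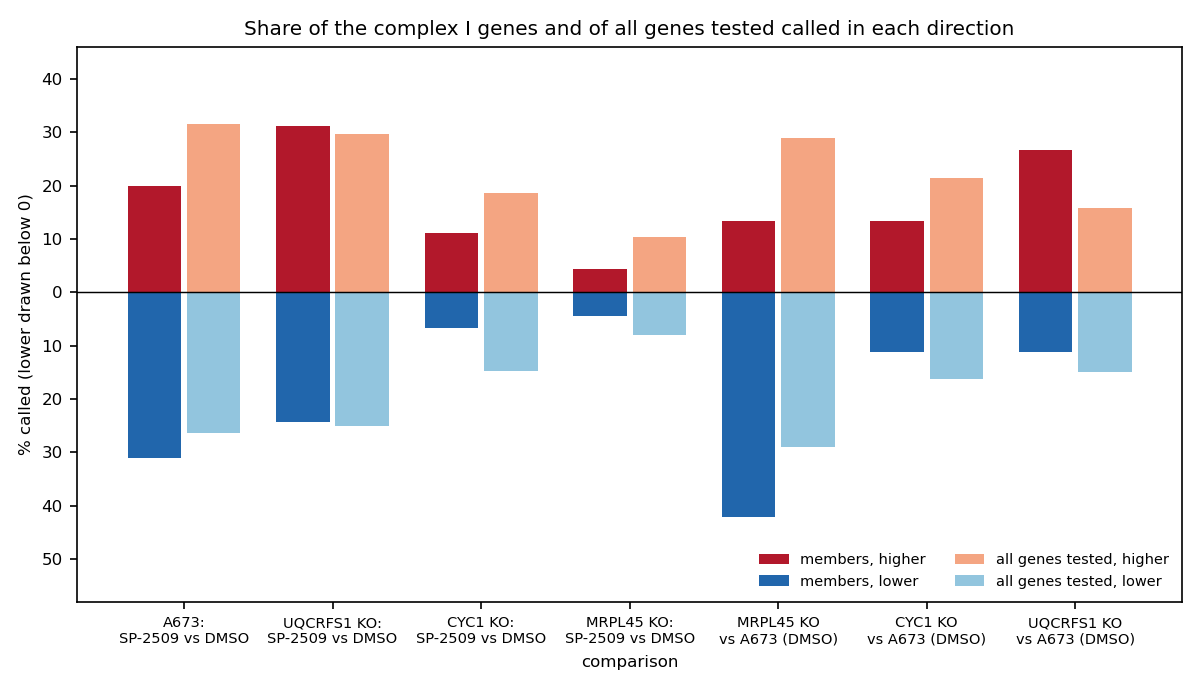
Percent called higher (above 0) and lower (below 0) in 7 comparisons (horizontal axis), for the 45 complex I genes (dark) and for all 21633 genes tested (pale). The members exceed all genes in the lower direction in the MRPL45 knockout line against A673 (42.2% and 29%) and in the higher direction in the UQCRFS1 knockout line against A673 (26.7% and 15.8%). Genes of complexes II to V are not drawn. Their shares ran from 50% to 64.7% lower in the former comparison and from 6.7% to 50% higher in the latter.

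The response itself was compared between each knockout line and A673 by the interaction contrast, in which all 3 comparisons share the A673 libraries. For the MRPL45 knockout line 6 members gave a more positive and 2 a more negative response, 13.3% and 4.4% of the 45, against 14.5% and 24.2% of all genes tested (38.7% in either direction). NDUFAB1 responded with -0.02 in the MRPL45 knockout line and -0.64 in A673, a difference of 0.63 ± 0.09 (adjusted p = 6.93e-06). NDUFB6 responded with -0.05 in the knockout line and -0.64 in A673 (difference 0.59 ± 0.11, adjusted p = 6.48e-05). In both genes a fall in A673 had no called counterpart in the MRPL45 knockout line. With DMSO both genes were already lower in this line than in A673. In its DMSO libraries NDUFAB1 stood at 59.5 and 65.2 CPM, below A673 with SP-2509 (76.5 and 73.3 CPM). NDUFB6 stood at 44.6 and 46.6 CPM, between A673 with SP-2509 (38.7 and 36.6 CPM) and A673 with DMSO (63.3 and 53.97 CPM). The A673 DMSO libraries enter both this gap and the difference in response. Whether the starting level bears on the response was not tested. NDUFC1 rose by 0.20 in the knockout line and by 0.61 in A673 (difference -0.40 ± 0.09, adjusted p = 0.000792). NDUFAB1, NDUFB6, NDUFA1, NDUFB10 and NDUFC1 held with each of the 8 libraries left out; NDUFB3, NDUFB7 and NDUFB11 did not. Without the first MRPL45 knockout DMSO library 4 genes had a more negative response; without the second one, the second A673 DMSO library or either A673 SP-2509 library 1 did. The replicate block gave 10 and 4, adding NDUFA2, NDUFA9, NDUFB5, NDUFB9, NDUFS4 and NDUFS5, and upper-quartile factors, with the median of all genes at 0.12, gave 14 and 1.

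For the CYC1 knockout line 8 members (17.8%) gave a more positive and 1 (2.2%) a more negative response, against 12.8% and 21% of all genes tested (33.9% in either direction). NDUFAF3 responded with -0.02 in the CYC1 knockout line and -0.84 in A673 (difference 0.82 ± 0.18, adjusted p = 0.000726). NDUFB10 responded with -0.19 in the knockout line and -0.76 in A673 (difference 0.57 ± 0.09, adjusted p = 3.74e-05), and NDUFC1 with 0.07 in the knockout line and 0.61 in A673 (difference -0.53 ± 0.09, adjusted p = 3.2e-05). The changes of all 3 genes were thus smaller in size in this line than in A673. Besides these, NDUFAB1 and NDUFB6 held with each library left out, while NDUFA3, NDUFB1, NDUFB5 and NDUFB7 did not; 5 genes had a more positive response without the first A673 DMSO library or the second CYC1 knockout DMSO library, and 2 a more negative one without the second A673 DMSO library. The replicate block gave 12 and 2, and upper-quartile factors, with the median of all genes at 0.17, gave 19 and 1.

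For the UQCRFS1 knockout line 6 members (13.3%) gave a more positive response and 0 a more negative one, against 3.02% and 7.68% of all genes tested (10.7% in either direction); at an unadjusted p under 0.05 edgeR gave 14 and 0, and DESeq2 called 5 and 0. NDUFA1, a small membrane-arm subunit encoded on the X chromosome, had 97.5 and 90.1 CPM with SP-2509 and 88.5 and 97.5 CPM with DMSO in this line, and 60.6 and 60.1 CPM with SP-2509 and 86.1 and 77.8 CPM with DMSO in A673. Its difference in response was 0.46 ± 0.10 (adjusted p = 0.00262), and the calls for NDUFAF5, NDUFAB1, NDUFB3, NDUFAF4 and NDUFS5 were of 0.29 to 0.39. NDUFA1 was the call that held with every library left out. The number of more positive responses was 1 without the first A673 DMSO library or the first UQCRFS1 knockout SP-2509 library, and 2 without either A673 SP-2509 library or the first UQCRFS1 knockout DMSO library. The replicate block gave 9 and 0, adding NDUFB1, NDUFB6 and NDUFB9.

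The 3 knockout lines were each compared with A673 under DMSO; these comparisons share the 2 A673 DMSO libraries, so their values are not independent of each other. The MRPL45 knockout line had lower levels of 19 of the 45 genes (42.2%) and higher levels of 6 (13.3%) than A673, against 29% lower and 28.9% higher of all genes tested (57.8% in either direction). Their median log2 fold change was -0.18 and that of all genes 0.01. Lower levels were not particular to complex I. Of the genes listed for complexes II, III, IV and V, 50%, 53.3%, 54.2% and 64.7% were lower. Higher were 12.5%, 0%, 8.3% and 0% of them, and their medians were -0.37, -0.36, -0.32 and -0.56. Of the 11 NDUFB subunits 7 were lower (NDUFB1, NDUFB3, NDUFB4, NDUFB5, NDUFB6, NDUFB9 and NDUFB10), and of the 7 assembly factors 4 were lower (NDUFAF3, NDUFAF4, NDUFAF5 and NDUFAF7). edgeR called 0 higher in either class, also at an unadjusted p under 0.05, and so did DESeq2, but upper-quartile factors gave 1 NDUFB and 2 assembly-factor genes as higher.

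NDUFAB1 had 59.5 and 65.2 CPM in MRPL45 knockout libraries, against 126 and 109 CPM in A673 libraries (log2 -0.91 ± 0.07, adjusted p = 1.58e-11). NDUFC1 had 32.7 and 32.4 CPM in MRPL45 knockout libraries, against 51.8 and 47.9 CPM in A673 libraries (-0.62 ± 0.06, adjusted p = 9.07e-09). NDUFAF5, which hydroxylates NDUFS7 during assembly, had 17.1 and 17.3 CPM in MRPL45 knockout libraries, against 28.9 and 25.03 CPM in A673 libraries (-0.65 ± 0.08, adjusted p = 8.4e-08). In these genes the knockout libraries are nearly equal and well below A673. NDUFAF4 (-0.60 ± 0.07) and NDUFB10 (-0.58 ± 0.07) changed by about as much. NDUFA4 had 121 and 147 CPM in MRPL45 knockout libraries, against 271 and 205 CPM in A673 libraries (-0.83 ± 0.20, adjusted p = 0.00705); its libraries vary more and the call was lost without the first MRPL45 knockout library (-0.70, adjusted p = 0.051). Among the core subunits NDUFS1 (-0.31 ± 0.06) was lower, and NDUFS7 (0.39 ± 0.12) and NDUFS8 (0.24 ± 0.06), which carry iron-sulfur clusters of the Q module, were higher. NDUFS6, a zinc-binding subunit of the N module, had 73.7 and 79.9 CPM in MRPL45 knockout libraries, against 53.6 and 63.5 CPM in A673 libraries (0.39 ± 0.08, adjusted p = 0.000418), and NDUFA3 was higher too (0.34 ± 0.07). The calls that held when any 1 library was left out were those of NDUFS6 and NDUFA3 among the 6 higher and 14 of the 19 lower. Higher calls numbered 2 without the second A673 library and 3 without the second MRPL45 knockout library, and upper-quartile factors gave 11 higher and 15 lower. The replicate block added NDUFA2, NDUFA12 and NDUFC2.

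The partners of these genes from lists of the same complex are given for context. Of 11 assembly factors of complex I with other names, 10 were lower and 1 (NUBPL, which delivers iron-sulfur clusters, at 0.30 ± 0.10) higher in the MRPL45 knockout line than in A673. These are 90.9% and 9.1% of them, against 29% and 28.9% of all genes tested. FOXRED1, a factor for the membrane arm, had 13.4 and 14.3 CPM in MRPL45 knockout libraries, against 57.8 and 56.9 CPM in A673 libraries (-2.05 ± 0.07, adjusted p = 3.92e-18), which was the largest of these changes, followed by COA1 (-1.42 ± 0.08) and TIMMDC1 (-0.90 ± 0.08). FOXRED1 was also lower with SP-2509 in each of the 4 lines, at -0.69 in A673, -0.60 in the UQCRFS1, -0.42 in the CYC1 and -0.39 in the MRPL45 knockout line. Among the 7 mitochondrially encoded subunits, 3 (42.9%) were higher and 0 lower in that line than in A673, against 28.9% and 29% of all genes tested. MT-ND1 had 3179 and 2206 CPM in MRPL45 knockout libraries, against 774 and 492 CPM in A673 libraries (2.09 ± 0.31, adjusted p = 0.000358), and MT-ND2 (1.96 ± 0.28) and MT-ND3 (1.53 ± 0.38) were higher as well. The other 4 were not called (0.35 to 0.94), while 5 of the 7 were higher at an unadjusted p under 0.05 and by DESeq2. With SP-2509 edgeR called 0 of the 7 in any line, against 18.5% to 58% of all genes tested. At an unadjusted p under 0.05 there was 1 lower in A673, as there was by DESeq2, and 0 in the knockout lines. NDUFA4L2, the paralog of NDUFA4, had 0.885 and 0.762 CPM with SP-2509 and 1.88 and 1.89 CPM with DMSO in A673 (-1.20 ± 0.23, adjusted p = 7.01e-05), whereas NDUFA4 itself was not called in any line (-0.03 to 0.23).

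In the CYC1 knockout line with DMSO 6 members (13.3%) were higher and 5 (11.1%) lower than in A673, against 21.4% and 16.2% of all genes tested (37.6% in either direction). NDUFA4 had 398 and 357 CPM in CYC1 knockout libraries, against 271 and 205 CPM in A673 libraries (log2 0.66 ± 0.20, adjusted p = 0.0312), opposite to its direction in the MRPL45 knockout line; the call was lost without either CYC1 knockout library or without the second A673 library (log2 between 0.47 and 0.73), and with upper-quartile factors. NDUFC1 had 62.9 and 61.6 CPM in CYC1 knockout libraries, against 51.8 and 47.9 CPM in A673 libraries (0.32 ± 0.06, adjusted p = 0.000199). NDUFB1, a small membrane-arm subunit, had 25.8 and 24.1 CPM in CYC1 knockout libraries, against 35.98 and 33.9 CPM in A673 libraries (-0.49 ± 0.07, adjusted p = 1.97e-06). NDUFB5 (-0.37 ± 0.08), NDUFA8 (-0.35 ± 0.06) and NDUFB10 (-0.34 ± 0.07) were lower as well, and with NDUFB1 and NDUFC1 they were the 5 calls that held when any 1 library was left out. The smaller calls for NDUFAF4, NDUFS6, NDUFA12, NDUFS1 and NDUFS4 did not hold. Higher calls numbered 2 without the second A673 library or either CYC1 knockout library. The replicate block gave 9 higher and 7 lower, with NDUFA3, NDUFAF5, NDUFB2 and NDUFV2 among those added, and upper-quartile factors gave 2 and 10.

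In the UQCRFS1 knockout line with DMSO 12 members (26.7%) were higher and 5 (11.1%) lower than in A673, against 15.8% and 15% of all genes tested (30.8% in either direction). Of the genes listed for complexes II, III, IV and V, 50%, 6.7%, 29.2% and 11.8% were higher, and 25%, 20%, 8.3% and 5.9% lower. Of the 11 NDUFB subunits 6 were higher: NDUFB1, NDUFB3, NDUFB6, NDUFB7, NDUFB9 and NDUFB11. edgeR called 0 of the 11 lower, also at an unadjusted p under 0.05, and DESeq2, RLE and upper-quartile factors also gave 6 and 0. NDUFB7 had 56.4 and 75.9 CPM in UQCRFS1 knockout libraries, against 39.4 and 37.98 CPM in A673 libraries (log2 0.77 ± 0.11, adjusted p = 5.58e-05). NDUFB3 had 72.3 and 72.6 CPM in UQCRFS1 knockout libraries, against 59.8 and 51.4 CPM in A673 libraries (0.38 ± 0.07, adjusted p = 0.000202). NDUFB7 varied between the knockout libraries, yet both lay above both A673 libraries. NDUFA13 was called higher from at most 3 CPM in either line. NDUFA3 (0.54 ± 0.07), NDUFB9 (0.50 ± 0.12) and the core subunit NDUFS7 (0.49 ± 0.11) were higher too. NDUFV1, the NADH-oxidising core subunit, had 69.7 and 83.9 CPM in UQCRFS1 knockout libraries, against 89.9 and 102 CPM in A673 libraries (-0.32 ± 0.07, adjusted p = 0.00121), and NDUFA8 (-0.37 ± 0.06), NDUFS6 (-0.34 ± 0.08), NDUFS4 (-0.24 ± 0.07) and NDUFV3 (-0.23 ± 0.06) were lower. The calls for NDUFA3, NDUFB1, NDUFB3, NDUFB7, NDUFS5, NDUFS7, NDUFA8 and NDUFV3 held when any 1 library was left out; that for NDUFV1 was lost without the second A673 or the first UQCRFS1 knockout library (-0.23 and -0.19). Higher calls numbered 7 without the second A673 or the second UQCRFS1 knockout library, and lower calls 2 without the first UQCRFS1 knockout library. The replicate block added NDUFA11, NDUFAF5, NDUFAF7, NDUFB2 and NDUFV2.

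The levels of the 45 genes were also summed in each library. The sum was 2463 and 2546 CPM in MRPL45 knockout libraries with SP-2509 and 2347 and 2583 CPM with DMSO, 3213 and 3202 CPM in CYC1 knockout libraries with SP-2509 and 3062 and 3120 CPM with DMSO. It was 3339 and 3186 CPM in UQCRFS1 knockout libraries with SP-2509 and 3014 and 3227 CPM with DMSO, and 2809 and 2871 CPM in A673 libraries with SP-2509 and 2947 and 2846 CPM with DMSO. These sums include NDUFA4, which is assigned to complex IV. Without NDUFA4, CYC1 knockout libraries with DMSO had 2664 and 2764 CPM. A673 libraries with DMSO then had 2676 and 2641 CPM, so the 2 groups overlapped. With these TMM factors the MRPL45 knockout libraries were the 4 lowest, and treatments overlapped in 3 of the 4 lines, the CYC1 knockout line being the exception. Both statements change with the scaling. With upper-quartile factors an A673 library with SP-2509 was lowest, at 2555 CPM, against 2591 CPM for the lowest MRPL45 knockout library, and with library totals the lowest A673 library with SP-2509 had 2588 CPM, against 2599 CPM for the lowest MRPL45 knockout library. A673 treatments then no longer overlapped, with 2555 and 2628 CPM with SP-2509 against 3073 and 2924 CPM with DMSO under upper-quartile factors. The UQCRFS1 knockout treatments separated under both of these scalings, with SP-2509 lower, and those of the CYC1 knockout line overlapped with library totals. The sum of the 7 MT-ND genes was 10309 and 6218 CPM in MRPL45 knockout libraries with DMSO, against 4338 and 2944 CPM in A673 libraries with DMSO. The members did not share 1 pattern over the 8 group means: the correlation of a gene with the mean of the other 44 had a median of 0.54 and ran from -0.97 for NDUFS8 to 0.97, with 12 genes above 0.7 and 10 below 0. The lowest 5 were NDUFS8, NDUFA8, NDUFV1, NDUFS6 and NDUFV3, 4 of which belong to the matrix arm. This order also depends on the scaling. With upper-quartile factors the assembly factor NDUFAF2 was lowest, at -0.83. NDUFS6 and NDUFV1 stayed low, at -0.71 and -0.59, while NDUFS8, NDUFA8 and NDUFV3 had -0.378, -0.418 and -0.295. These correlations describe groups that share libraries and scaling.

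**Figure D4:**
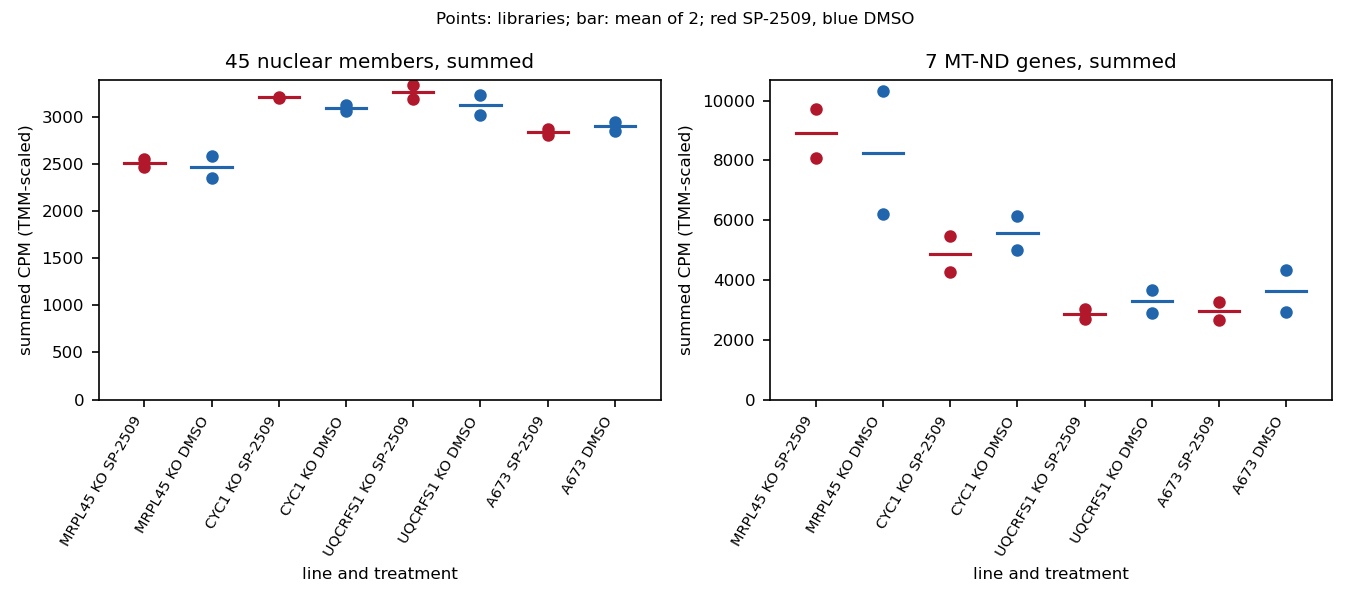
Summed CPM with TMM factors (vertical axes, from 0) of the 45 nuclear genes (left) and of the 7 MT-ND genes (right) in each library, by line and treatment (horizontal axis; SP-2509 red and left of DMSO blue; bar, mean of 2). The MRPL45 knockout libraries are lowest on the left, at 2347 to 2583 CPM, which does not hold with upper-quartile factors or library totals, and highest on the right.

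A set of members differed by replicate number in every group. NDUFC2, a membrane-arm subunit, had 28.1 and 61.97 CPM in replicates 1 and 2 of A673 with SP-2509 and 22.8 and 52.2 CPM with DMSO. NDUFA11 had 15.2 and 34.5 CPM in replicates 1 and 2 of A673 with SP-2509 and 17.2 and 31.1 CPM with DMSO. In both genes the gap between replicates is far wider than that between treatments. The median ratio of replicate 2 to replicate 1 over the 8 groups was 2.22 for NDUFC2, 2.18 for NDUFA11, 2.12 for NDUFB8, 1.42 for NDUFB2 and NDUFA9, 1.38 for NDUFA2 and 1.13 for NDUFB9, and each of these 7 was higher in replicate 2 in all 8 groups. NDUFB8 had its narrowest gap in the UQCRFS1 knockout line with SP-2509, at a ratio of 1.14, and its widest, 2.54, in A673 with SP-2509. With replicate number as a term, edgeR called 8 of the 45 genes (17.8%) higher in replicate 2, the eighth being NDUFAF3, and 1 (2.22%), NDUFS7, lower, against 2.85% and 2.42% of all genes tested (5.27% in either direction). What the replicate numbers stand for is not given in the labels, and the source of this split was not tested. The fit without a replicate term counts it as spread. With the replicate block NDUFC2 was called higher with SP-2509 in A673 (0.27, adjusted p = 0.0365), in the UQCRFS1 knockout line (0.43, adjusted p = 0.00227) and in the CYC1 knockout line (0.32, adjusted p = 0.0248). Under the block NDUFA11 was called in none of the 4 responses and was higher in the UQCRFS1 knockout line than in A673 with DMSO (0.76, adjusted p = 0.00554), and NDUFB8 was called in none of the 10 comparisons with or without the block.

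**Figure D5:**
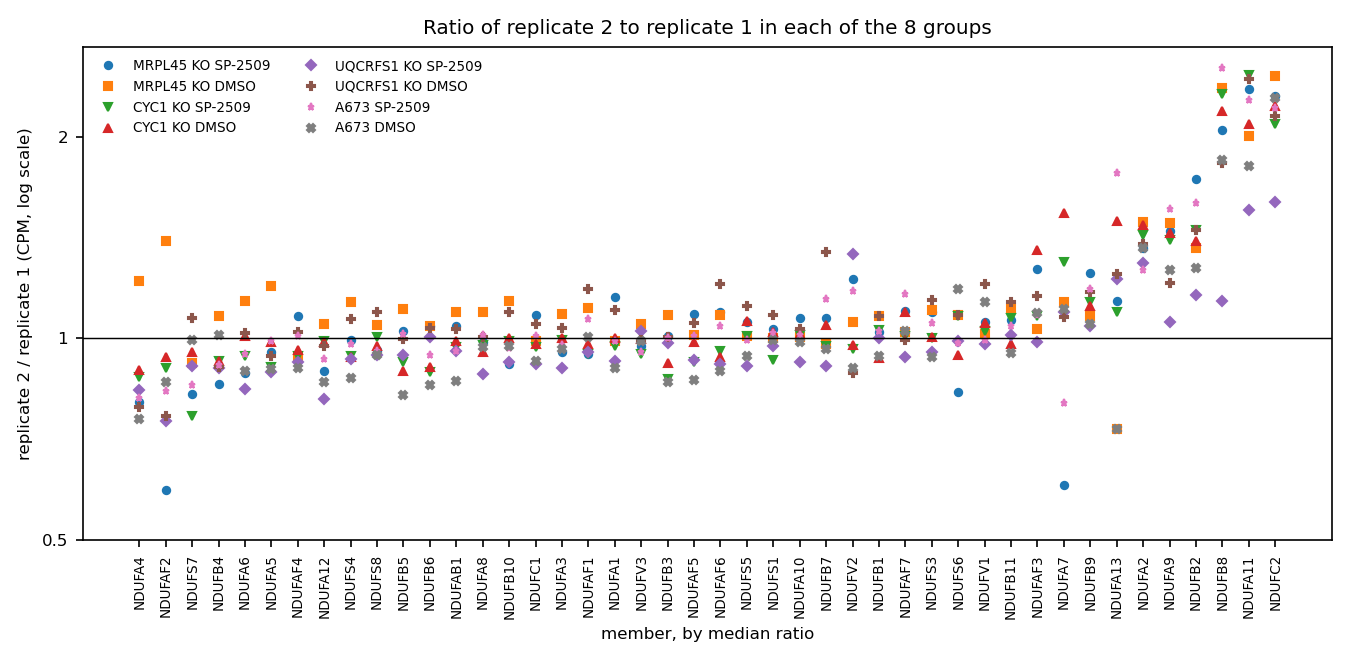
Ratio of CPM in replicate 2 to replicate 1 (vertical axis, log scale) of 44 of the 45 complex I genes (horizontal axis, by median ratio) in each of the 8 groups (symbols). NDUFC2, NDUFA11 and NDUFB8 lie at the right with median ratios of 2.22, 2.18 and 2.12, while most genes lie around 1.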

How the data were processed

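Poly(A) RNA of 16 libraries was sequenced, and the authors deposited 10 tables with raw counts per gene, log2 fold changes and adjusted p-values of their own comparisons. Per the submitters' processing notes, FastQC, MultiQC, Trim Galore, STAR 2.5.2b, DESeq2 and the hg19 build were used. Count columns repeated in several tables were identical and were taken once, and 2265 gene IDs without a symbol, with 2.41% to 8.59% of a library's counts, entered the library sizes and tests but were not named.

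From the counts, edgeR 4.0.16 in R 4.3.3 (TMM factors, filter by group, robust quasi-likelihood fit with one mean for each of 8 groups, 8 residual degrees of freedom, common biological coefficient of variation 0.0716) tested 10 comparisons over 21633 genes, called at a Benjamini-Hochberg adjusted p under 0.05. Standard errors were derived from the F statistic of each log2 fold change. The test was also run on simulated counts, with the same spread for every gene and no effect of replicate number. These settings differ from the data, so that run does not show how the test performs here. Total counts of 24873597 to 56171036 per library limit low genes most. Named were, for each comparison, up to 5 called genes in each direction with the largest change, at least 5 CPM and no overlap of libraries, core subunits, NDUFA4 and NDUFAB1; other genes were named after their values were seen. The members and lists were chosen with earlier results of these data known. The values of 1 member are not reported here, though counts over the 45 genes include it.

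Libraries with the same replicate number deviated together: all 28 correlations between groups, over 10597 genes, lay between 0.125 and 0.651. Alternatives were upper-quartile and RLE factors, DESeq2 1.42.0, no filter, a replicate block, a fit of the compared groups alone, library totals without factors, and leaving out each library. Promoters and exon lengths used GRCh38 annotation, and no coordinates of hg19 are given.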

Additional observations from a re-analysis of the deposited data

Results flagged for a closer look

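A group of results was flagged by the interaction contrast (edgeR, Benjamini-Hochberg adjusted over 21633 genes). In these genes the response to SP-2509 differed between a knockout line and A673. In the MRPL45 knockout line 13.3% of members responded more positively and 4.4% more negatively, against 14.5% and 24.2% of all genes tested. The shares were 17.8% and 2.2% in the CYC1 knockout line, against 12.8% and 21%. They were 13.3% and 0% in the UQCRFS1 knockout line, against 3.02% and 7.68%. All 3 contrasts share the A673 libraries, and each value is the log2 response of the knockout line minus that of A673. Between the MRPL45 knockout line and A673 the difference was 0.63 for NDUFAB1, 0.59 for NDUFB6, 0.48 for NDUFB7, 0.48 for NDUFA1 and 0.37 for NDUFB10, all of which fell in A673. It was -0.40 for NDUFC1 and -0.30 for NDUFB11, which both rose in A673. Of these, the calls for NDUFB7 and NDUFB11 did not hold in every fit that left out 1 library. Between the CYC1 knockout line and A673 the difference was 0.82 for NDUFAF3, 0.57 for NDUFB10, 0.47 for NDUFB6, 0.42 for NDUFB7, 0.41 for NDUFAB1 and -0.53 for NDUFC1. Here the call for NDUFB7 did not hold in every such fit. Between the UQCRFS1 knockout line and A673 the difference was 0.46 for NDUFA1, 0.39 for NDUFAF5, 0.36 for NDUFAB1, 0.33 for NDUFB3 and 0.31 for NDUFAF4. Of these only NDUFA1 held in every fit that left out 1 library.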

How the results depend on the processing

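The values below are numbers of the 45 genes called. Shares of all genes called in the 10 comparisons are given only for the fit with TMM factors, the filter and no replicate term. Counts under other settings, or at an unadjusted p, cannot be set against those shares. Upper-quartile factors gave 4 higher in A673 with SP-2509, 1 higher and 4 lower in the MRPL45, 5 lower in the CYC1 and 9 higher in the UQCRFS1 knockout line; against A673 with DMSO they gave 11 higher in the MRPL45 and 2 higher and 10 lower in the CYC1 knockout line, and more positive responses numbered 14 (1 more negative) in the MRPL45 and 19 in the CYC1 knockout line. Without the filter, 4 were higher with SP-2509 in the MRPL45 and 5 lower in the CYC1 knockout line, 3 were higher in the MRPL45 knockout line than in A673, and 2 responses were more negative in the CYC1 knockout line. The replicate block gave 4 higher with SP-2509 in the MRPL45 and 11 in the CYC1 knockout line, 10 more positive and 4 more negative responses in the MRPL45 and 2 more negative in the CYC1 knockout line; it ended no call, and the calls it added are named in the report. The compared groups alone gave 0 higher with SP-2509 in the MRPL45 knockout line (edgeR; 6 at an unadjusted p under 0.05 over all libraries, 2 by DESeq2), 9 higher and 7 lower in the CYC1 knockout line, 3 higher in the CYC1 knockout line than in A673, and 14 more positive responses there. RLE factors and DESeq2 moved no count by over 1.5 times, and no named value changed sign as a call in any alternative.

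Leaving out 1 library, the higher and lower calls with SP-2509 ranged from 0 to 3 and 2 to 3 for the MRPL45, 1 to 4 and 2 to 3 for the CYC1, and 10 to 15 and 9 to 11 for the UQCRFS1 knockout line, and from 6 to 7 and 12 to 16 for A673. Against A673 they ranged from 2 to 4 and 14 to 21 in the MRPL45, 2 to 5 and 4 to 6 in the CYC1, and 7 to 12 and 2 to 6 in the UQCRFS1 knockout line. More positive and more negative responses ranged from 4 to 9 and 1 to 4 for the MRPL45 and 5 to 10 and 1 to 2 for the CYC1 knockout line; for the UQCRFS1 knockout line they were 1 to 8 and 0. A fit that leaves 1 library in a group takes its spread from the other groups.

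The summed level was, with upper-quartile factors, 2688 and 2695 CPM for MRPL45 knockout cells with SP-2509 and DMSO, 3052 and 3003 for CYC1 knockout cells, 3074 for UQCRFS1 knockout cells with SP-2509, and 2591 and 2998 in A673; with library totals it was 2662 and 2719.7 for MRPL45 knockout cells, 3070.4 for CYC1 and 2928 for UQCRFS1 knockout cells with SP-2509, and 2636 and 3021 in A673. Single libraries ranged from 2463 to 2546 and from 2347 to 2583 for the MRPL45, 3202 to 3213 and 3062 to 3120.5 for the CYC1, 3186 to 3339 and 3014 to 3227 in the UQCRFS1 knockout line, and 2809 to 2871 and 2846 to 2947 in A673. NDUFA7, NDUFA13 and NDUFV2 remain uncertain, with 674, 1224 and 2053 counts over all libraries, and the reason for these low counts was not tested.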
